A study of Mus musculus with 3 samples.

Results

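Cornified envelope and barrier genes are the genes that keratinocytes switch on as they leave the basal layer and build the outer shell of the skin. The set described here holds 37 named genes of the 34289 genes in the count tables, and all 37 symbols were found in all 3 tables. They fall into 27 genes of the normal barrier (among them Lor, Flg, Flg2, Hrnr, Sbsn, Krtdap, Spink5, Cdsn and Klk7) and 10 genes that are associated with injured or inflamed epidermis (Sprr1a, Sprr1b, Sprr2a3, Sprr2d, Sprr2f, Sprr2h, Sprr3, Lce3c, Sfn and Gpr15lg).

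The epidermis renews itself from basal keratinocytes, which carry keratins 5 and 14. A cell that moves up turns to keratins 1 and 10 and, in the granular layer, makes loricrin, filaggrin and other proteins that transglutaminases join to one another into an insoluble envelope under the plasma membrane. Lipids are laid on the outside of that envelope, and proteases of the kallikrein family later cut the junctions so that the dead cells can be shed. Small proline-rich (Sprr) proteins are alternative building blocks of the envelope whose genes are known for their response to injury and inflammation.

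The data were droplet-based single-cell RNA libraries of ear epidermis from male mice of the Cd1 strain, enriched with magnetic beads for Langerhans cells, the antigen-presenting cells of the epidermis. Untreated mice had received the depilatory cream Nair and nothing else, and whether the treated mice also received it is not given in the sources used here. Another library came from ears given acetone with croton oil, an irritant plant oil, and olive oil, and the last from ears punched repeatedly with a microneedle array. Epidermis was taken 48 h after the first treatment. There was 1 library per group, so no difference between treatments has a replicate check and none was tested. How many mice went into a library is not given in the sources used here, and both comparisons use the same untreated library.

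The labels call all samples Langerhans cells, and by Cd74 and keratins 8607, 6085 and 5282 barcodes fit that label, so keratinocytes were a small remainder. Droplets whose Krt14, Krt5, Krt1 and Krt10 transcripts made up at least 0.5% of their unique molecular identifiers (UMIs, the counted RNA molecules), with Cd74 below 1%, numbered 191 of 9054 retained barcodes in the untreated library, 213 of 7626 after croton oil and 92 of 6479 after microneedling. Cells with more Krt14 and Krt5 than Krt1 and Krt10 were called basal (93, 190 and 68 cells in that order) and the reverse suprabasal (98, 23 and 22 cells), and 2 microneedle cells were tied. Basal cells held 2669206, 10014068 and 2658005 UMIs in all, and suprabasal cells 3376873, 842533 and 662238. Suprabasal cells made up 51.3%, 10.8% and 23.9% of keratinocytes, a share that the enrichment for Langerhans cells can set. No keratinocyte barcode was shared between libraries.

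The basal and suprabasal classes were not the same kind of sample in each library, which bears on every value that follows. Integrin alpha 6 (Itga6), a basal marker that the rule did not use, stood at 663, 507 and 822 CPM (counts of a gene per 1000000 UMIs of the class) in basal cells of the untreated, croton oil and microneedle libraries and at 58.9, 98.5 and 175 CPM in suprabasal cells. Krt14, which the rule uses and which is given as a description, was at 68.1, 5037 and 3032 CPM in suprabasal cells. The suprabasal cells after microneedling were shallow, with a median of 4442 UMIs and 13 of 22 cells under 10000 UMIs, against medians of 31837 and 37514 in the other libraries. Untreated basal cells carried RNA of Langerhans cells. In them the 8 Langerhans cell markers summed to 14719 CPM, with none of the 8 at 0, against 4676 and 6641 CPM in the treated basal cells (4600, 6686 and 7962 CPM in suprabasal cells), and 79 of the 93 untreated basal cells had Cd74 at 0.1% of UMIs or more. The 6 neutrophil markers summed to 5.62, 1948 and 930.4 CPM in basal cells and to 56.6, 2955 and 465 CPM in suprabasal cells. In the treated libraries S100a8 and S100a9, which injured keratinocytes also make, gave most of that sum, at 846 and 1087 CPM in basal cells after croton oil. Ly6g was at 0 in all 6 of those classes, Csf3r at or below 4.53 CPM and Retnlg at or below 21.1 CPM, while Cxcr2 was at 5.25, 13.7 and 7.90 CPM in basal and at 18.1, 60.5 and 16.6 CPM in suprabasal cells. The 6 T cell markers summed to 1.48, 167 and 145 CPM in suprabasal cells and to at most 10.4 CPM in basal cells, and the 5 fibroblast markers to at most 0.376 CPM in either class. The 6 cycling markers summed to 136, 1044 and 681 CPM in basal cells, with none at 0, and to 21.0, 239.8 and 52.9 CPM in suprabasal cells, with 1 at 0 after microneedling. The 9 hair follicle and sebaceous markers summed to 519.6, 289 and 678 CPM in basal cells, with 1 at 0 in the untreated library, and Krt79, one of them, was at 98.2, 2.30 and 38.0 CPM. They summed to 135, 300.3 and 258 CPM in suprabasal cells, with 3, 3 and 4 at 0. The basal keratin Krt15, which the rule did not use, was at 1781, 425 and 203 CPM in basal cells. The part of these differences in the results was not tested.

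Of the 37 members, 17 lie in 1 stretch of chromosome 3, the epidermal differentiation complex, where the genome keeps much of its envelope gene stock. In the GRCm39 assembly with the GENCODE annotation it runs from position 91987578, at Lor, to 93240877, at Hrnr, a span of 1253 kb. The upstream sequences of 3 of these neighbours are shown because, in suprabasal cells after croton oil, Lor was lower and Sprr1b and Sprr2d were higher, while each carries the same pair of motifs. The 250 bases before each transcription start come from RefSeq on the GRCm38.p6 assembly, so their coordinates cannot be set against the GRCm39 span. Capitals mark the TATA box letters TATAAA and the AP-1 motif TGANTCA, in which N is any base and which reads the same on both strands.
Lor (chr3:92083143-92083392, minus strand): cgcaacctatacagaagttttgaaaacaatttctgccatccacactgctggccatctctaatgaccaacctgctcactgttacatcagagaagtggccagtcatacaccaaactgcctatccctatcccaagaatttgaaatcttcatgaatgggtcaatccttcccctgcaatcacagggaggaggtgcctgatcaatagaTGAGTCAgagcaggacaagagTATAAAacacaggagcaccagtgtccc
Sprr1b (chr3:92438780-92439029, minus strand): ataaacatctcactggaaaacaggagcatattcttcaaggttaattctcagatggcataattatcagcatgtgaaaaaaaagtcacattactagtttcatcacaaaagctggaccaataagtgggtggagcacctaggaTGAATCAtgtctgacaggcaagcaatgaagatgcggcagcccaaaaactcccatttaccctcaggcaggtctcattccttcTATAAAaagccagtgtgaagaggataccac
Sprr2d (chr3:92338890-92339139, plus strand): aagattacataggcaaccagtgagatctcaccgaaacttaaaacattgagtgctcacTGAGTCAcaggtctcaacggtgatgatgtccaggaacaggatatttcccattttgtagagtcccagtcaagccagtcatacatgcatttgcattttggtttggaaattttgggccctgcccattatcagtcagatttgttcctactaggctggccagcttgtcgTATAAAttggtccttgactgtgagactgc

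The TATA letters began 27, 30 and 29 bases before the start of Lor, Sprr1b and Sprr2d, and the AP-1 letters 48, 111 and 193 bases before it. Promoter windows of 300 bases (250 before and 50 after the start) were matched for 34 members, which have 38 such windows. All motifs were searched on both strands. TGANTCA was found in 14 of the 38 windows (36.8%), against 7.81% of all 32851 windows of that length, and TATAAA in 13 of the 38 (34.2%) against 13.6%. The other motifs searched were CACCC (63.2% of member windows against 57.5%), the GRHL motif AACNGGTT (2.63% against 2.09%) and the STAT motif TTCNNNGAA (7.89% against 8.3%). By list, TGANTCA was in a window of 7 of the 25 normal barrier members and 5 of the 9 injury-associated members that had one. These shares describe letters and no binding. Spink5, Ly6d and Gpr15lg had no window.

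In untreated skin the members separated the layers. Of the 25 normal barrier members that reached a mean of 20 CPM over the 3 libraries in either class, 24 were at least 2-fold higher in suprabasal than in basal cells (median log2 difference 4.07, on the scale log2(CPM + 5)), and Tgm3 was within 2-fold. Of all 7544 genes that reached that level, 11.6% were higher in suprabasal cells (median -0.33). Lce1m, a late cornified envelope gene, had 0 UMIs in 93 untreated basal cells and 721 CPM in suprabasal cells. The same comparison within the croton oil library gave 18 of 25 members higher in suprabasal cells (median 1.58), against 7.57% of all genes, and within the microneedle library 13 of 25, with 1 higher in basal cells (median 1.25), against 6.55% and 11.3%. The counts were 22, 21 and 15 of 25 among cells with Cd74 below 0.1% of UMIs, where 15.2%, 9.53% and 13.0% of all genes were higher. The 9 injury-associated members had medians of 0.53, 0.56 and -1.25 in the 3 libraries. After microneedling 6 of those 9 were at least 2-fold higher in basal than in suprabasal cells and none the other way (8 and none with Cd74 below 0.1% of UMIs). Of all genes 11.3% were higher in basal cells after microneedling, and 25.8% with Cd74 below 0.1% of UMIs.

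Most normal barrier genes were lower in suprabasal cells of both treated libraries. The 7 injury-associated genes compared were higher after croton oil, and 4 of them after microneedling. Of the 32 members that reached a mean of 20 CPM in suprabasal cells, 18 were at least 2-fold lower after croton oil and 9 at least 2-fold higher, where 9.99% and 9.58% of the 6334 genes compared passed the same thresholds. After microneedling 16 were lower and 5 higher, against 6.16% and 8.86% of all genes. The 25 normal barrier members among them had a median log2 change of -2.43 after croton oil, with 18 lower and 2 higher, and of -1.40 after microneedling, with 16 lower and 1 higher. The 7 injury-associated members had medians of 4.04, with 7 higher, and 2.68, with 4 higher and none lower. The median over all genes compared was 0.06 and 0.13. Scaling by trimmed mean of M-values (TMM) moved the split of all genes to 7.58% higher and 12.3% lower after croton oil and to 5.14% and 10.1% after microneedling, with members at 8 higher and 19 lower and at 4 and 17. When every cell was given equal weight, the croton oil counts became 14 higher and 11 lower of 35 members compared, where 15.8% and 16.8% of all genes passed. Among cells with Cd74 below 0.1% of UMIs, 67, 13 and 11 in the 3 libraries, 4 of 31 members were lower after microneedling in place of 16 of 32, and 5.42% of all genes. The normal and injury-associated medians after microneedling were -0.27 and 1.26 there. They were -3.55 and 2.26 without the cell with most UMIs of each gene.

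In basal cells the treatments parted. Of the 27 members that reached 20 CPM there, 14 were higher and 7 lower after croton oil, where 10.5% and 14.3% of the 7032 genes compared passed, and 20 were higher and 1 lower after microneedling, against 5.38% and 4.1%. The 18 normal barrier members had a median log2 change of -0.20 after croton oil, with 6 higher and 7 lower, and of 1.57 after microneedling, with 11 higher and 1 lower. All 9 injury-associated members compared were higher after microneedling (median 5.46) and 8 after croton oil (median 3.07), where Lce3c had no UMI. The median over all genes was -0.11 and 0.03, and TMM scaling moved the first to 0.34, with 21.9% of genes higher and 6.9% lower, and the median of the normal barrier members after croton oil to 0.21. The 7 lower calls after croton oil rested on few untreated cells: without the cell that held most UMIs of each gene Lor (-1.58) and Asprv1 (-2.34) stayed past 2-fold lower, Asprv1 alone of them among the 22 members that still reached 20 CPM, and no member was lower among cells with keratins at 2% of UMIs or more. Within cells with Cd74 below 0.1% of UMIs (14, 125 and 42 basal cells) the counts were 9 higher and 4 lower after croton oil, where 11.5% and 11.1% of all genes passed, and 22 and 0 after microneedling, where 11.2% and 6.58% passed, of 26 members compared. The 4 lower were Lor, Asprv1, Ly6d and Sbsn, of which Lor and Asprv1 were among the 7.

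**Figure D1:**
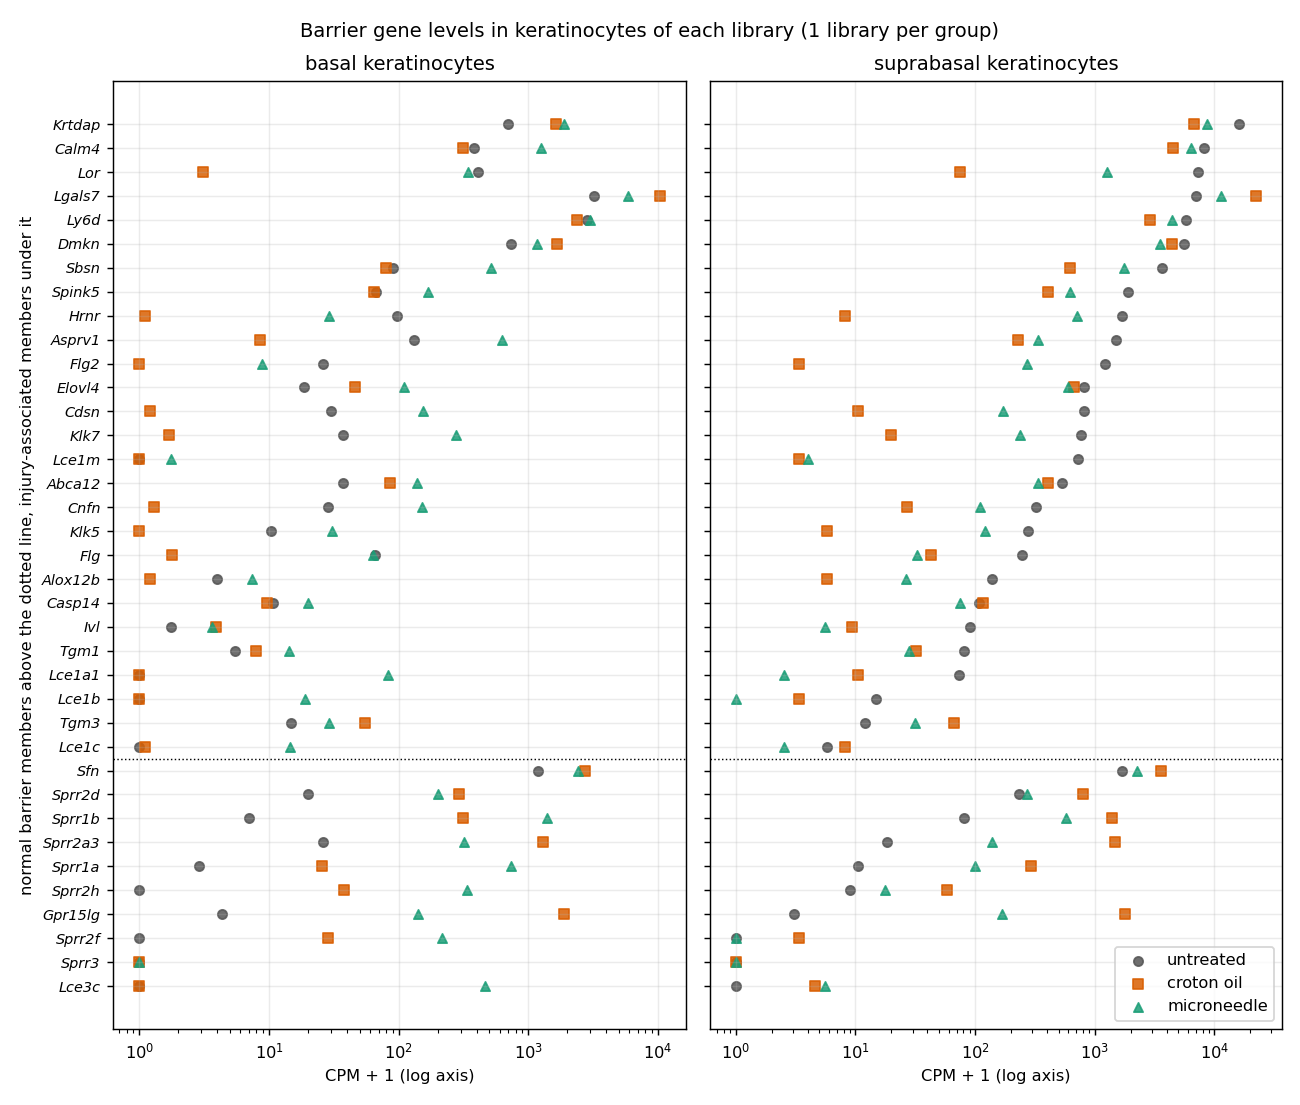
Level of each of the 37 members in each library, as CPM + 1 on a log axis, in basal (left) and suprabasal (right) keratinocytes. Each point is the sum over all cells of 1 library (grey circle untreated, orange square croton oil, green triangle microneedle); normal barrier members are above the dotted line. In suprabasal cells Lor, Flg2, Hrnr, Cdsn and Lce1m stood highest in the untreated library, and Gpr15lg and Sprr2a3 highest after croton oil.

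The structural proteins of the late envelope lay below the untreated library in suprabasal cells, with 8 of 8 compared lower after each treatment (median log2 changes -4.98 and -2.64). Among cells with Cd74 below 0.1% of UMIs, the microneedle changes of Lor, Flg2, Hrnr and Cnfn no longer passed 2-fold, and after croton oil Flg and Lce1a1 were not lower when every cell was weighted equally. Lor encodes loricrin, the main protein of the cornified envelope. Its level there was 7360.4 CPM in the untreated library (95% Poisson interval 7269 to 7452), 73.6 CPM after croton oil (56.4 to 94.3) and 1277 CPM after microneedling (1193 to 1367), giving log2 changes of -6.55 and -2.52. All intervals cover counting error only. The UMIs of the 3 libraries were spread very differently over cells. In the untreated library 71 of 98 suprabasal cells had Lor and the leading cell held 13.8% of its UMIs. After microneedling 7 of 22 cells had it and 1 cell held 98.0% of the UMIs. Without the cell with most Lor in each library the changes were -6.97 and -7.50, while among cells with Cd74 below 0.1% of UMIs the microneedle change was -0.94, within 2-fold. With every cell weighted equally the changes of Lor were -2.27 after croton oil and -3.21 after microneedling.

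Filaggrin (Flg), whose breakdown products bind water in the dead layers, was at 244, 41.5 and 31.7 CPM in suprabasal cells of the untreated, croton oil and microneedle libraries (log2 changes -2.42 and -2.76). Its untreated value was uneven, with 43.5% of the UMIs in 1 cell, and with every cell weighted equally the change after croton oil was 0.65. The related S100-fused proteins filaggrin-2 and hornerin followed Lor. Flg2 was at 1208, 2.37 and 272 CPM (-7.36 and -2.13). Hrnr was at 1705, 7.12 and 708 CPM (-7.14 and -1.26). In the microneedle library 1 cell held 95.6% of the Flg2 UMIs and 98.3% of the Hrnr UMIs, so that the changes without it were -5.83 and -6.37. Among cells with Cd74 below 0.1% of UMIs they were -0.59 and 0.29.

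Involucrin (Ivl), an early scaffold protein of the envelope, was at 89.1, 8.31 and 4.53 CPM (-2.82 and -3.30), the treated values being 7 and 3 UMIs. Among the late cornified envelope genes, which encode small cysteine-rich proteins of the same cluster, Lce1m was at 721 CPM in the untreated library and at 2 UMIs in each treated library (-6.62 and -6.50). Its untreated UMIs came from 14 of 98 cells. Lce1a1 was at 72.8, 9.50 and 1.51 CPM (-2.43 and -3.58), with 72.4% of the untreated UMIs in 1 cell, and with every cell weighted equally its change after croton oil was 1.71. Lce1b and Lce1c did not reach 20 CPM in either class. Their 3' ends share 4.38% of their 90-base stretches with each other, and Lce1a1 shares 8.09% with other Lce1 genes, so that reads could have been assigned to a neighbour. Cornifelin (Cnfn), an envelope component, was at 323, 26.1 and 109 CPM (-3.40 and -1.53, the latter -0.038 with Cd74 below 0.1% of UMIs).

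In basal cells these late genes were rare, and single cells decided their level. Lor was at 408, 2.10 and 342 CPM there, with 1 cell holding 96.2% of the untreated and 97.5% of the microneedle UMIs. Flg (64.4, 0.799 and 62.8 CPM) and Hrnr (96.7, 0.0999 and 27.8 CPM) had the same shape, with 99.4% and 98.4% of the untreated UMIs in 1 cell. Without the cell that held most UMIs, the change after croton oil was -1.58 for Lor, 0.08 for Flg and -0.38 for Hrnr. The microneedle changes were -0.25, -0.03 and -1.63 over all basal cells, 4.06, 4.68 and 3.57 among cells with Cd74 below 0.1% of UMIs, and 5.68, 4.30 and 2.95 among cells with keratins at 2% of UMIs or more. Lce1a1 had 0 UMIs in untreated and croton oil basal cells and 81.3 CPM after microneedling, at least 72.3-fold higher than the 3-count floor of the untreated class, with 96.8% of the UMIs in 1 cell, without which the log2 change was 0.62 in place of 4.11. Flg2, Ivl, Lce1b, Lce1c and Lce1m stayed under a mean of 20 CPM in basal cells.

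Genes of desquamation, the shedding of dead cells, were lower in suprabasal cells of both treated libraries, 4 of 4 in each. None of the 4 passed 2-fold after microneedling among cells with Cd74 below 0.1% of UMIs, where the changes were -0.75 for Cdsn, -0.032 for Klk7, 0.33 for Klk5 and -0.27 for Spink5. Corneodesmosin (Cdsn), the glue of the junctions between cornified cells, was at 813, 9.50 and 171 CPM (log2 changes -5.82 and -2.22). The kallikrein Klk7, a protease that cuts those junctions, was at 763, 19.0 and 239 CPM (-5.00 and -1.66), and Klk5, which activates Klk7, at 276, 4.75 and 121 CPM (-4.85 and -1.16). Spink5, which encodes the kallikrein inhibitor LEKTI, was at 1884, 409 and 616 CPM (-2.19 and -1.60). With every cell weighted equally the croton oil change was -0.70 for Klk7 and -0.29 for Spink5, both within 2-fold, and -2.13 for Cdsn. After microneedling 1 cell held 99.1% of the Cdsn, 91.1% of the Klk7, 95.0% of the Klk5 and 85.3% of the Spink5 UMIs. Without the leading cell of each library the microneedle changes were -6.85, -4.61, -4.48 and -4.03 in that order.

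In basal cells the 3 desquamation genes compared were higher after microneedling. Cdsn was at 29.2, 0.200 and 153 CPM in the untreated, croton oil and microneedle libraries (2.21 after microneedling), Klk7 at 35.97, 0.699 and 277 CPM (2.78) and Spink5 at 65.9, 63.8 and 167 CPM (1.28). Their UMIs after microneedling lay in 8, 8 and 28 of 68 cells. The untreated values of Cdsn and Klk7 came from 1 cell to 96.2% and 99.0%, and the croton oil changes of -2.72 and -2.85 became -0.30 and 0.03 without it.

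Filaggrin is cut from its precursor by proteases. Asprv1, the aspartic protease SASPase, was at 1500, 228 and 334 CPM in suprabasal cells (-2.69 and -2.15, the latter -0.84 with Cd74 below 0.1% of UMIs), and in basal cells at 129, 7.49 and 620.4 CPM (-3.43 and 2.22), where 1 microneedle cell held 90.8% of the UMIs and the change without it was 0.15. Casp14, a caspase that degrades filaggrin, was within 2-fold in suprabasal cells at 107, 115 and 74.0 CPM (0.10 and -0.50), though its croton oil change was 1.56 with every cell weighted equally. The cross-linking enzymes differed in direction. Transglutaminase 1 (Tgm1), the membrane enzyme of keratinocytes, was at 80.0, 30.9 and 27.2 CPM in suprabasal cells (-1.24 and -1.40). With every cell weighted equally these changes were -0.76 and -0.32, and the latter was -0.29 with Cd74 below 0.1% of UMIs. Transglutaminase 3 (Tgm3) was higher, at 10.96, 65.3 and 30.2 CPM (2.14 and 1.14), though its change after microneedling was -0.28 with equal weight for each cell and -0.22 with Cd74 below 0.1% of UMIs. Basal Tgm3 was at 13.9, 54.0 and 28.2 CPM (1.65 and 0.82, the latter 2.13 with Cd74 below 0.1% of UMIs).

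Of the 3 lipid genes among the members, 2 stayed within 2-fold in suprabasal cells. Elovl4, which makes very long fatty acids for barrier ceramides, was at 814, 669 and 593 CPM in suprabasal cells, and Abca12, which loads lipid into lamellar granules, at 529, 404 and 332 CPM, all within 2-fold of the untreated library (Elovl4 at -1.01 after microneedling with every cell weighted equally). Both were higher in basal cells, Elovl4 at 17.6, 45.4 and 109 CPM (1.16 and 2.34) and Abca12 at 35.97, 85.3 and 137 CPM (1.14 and 1.79). Among cells with Cd74 below 0.1% of UMIs the basal Abca12 change after croton oil was 0.11. Alox12b, a lipoxygenase that acts on barrier ceramides, was the exception in suprabasal cells, at 137, 4.75 and 25.7 CPM (-3.87 and -2.21). The former was -0.92 with every cell weighted equally and the latter -0.92 with Cd74 below 0.1% of UMIs. Of 14 further lipid genes of the barrier, 7 were lower in suprabasal cells after each treatment, against 9.99% and 6.16% of all genes, and none higher. With Cd74 below 0.1% of UMIs 6 and 1 were lower, where 14.6% and 5.42% of all genes were. The widest changes were those of Aloxe3 (92.1, 9.50 and 37.8 CPM), which works after Alox12b, the sphingomyelinase Smpd1 (113, 14.2 and 43.8 CPM) and the elongase Elovl1 (626, 98.5 and 171 CPM). In basal cells 0 and 1 of 7 such genes were higher (10.5% and 5.38% of all genes) and none lower. With Cd74 below 0.1% of UMIs 2 and 2 were higher (11.5% and 11.2% of all genes) and none lower.

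Secreted products of differentiating keratinocytes were abundant in suprabasal cells of every library. Krtdap, a secreted differentiation-associated protein, was at 16138 CPM in the untreated library, 6721 CPM after croton oil and 8767 CPM after microneedling (-1.26 and -0.88, the former -0.77 with Cd74 below 0.1% of UMIs). Suprabasin (Sbsn) was at 3637, 618 and 1759 CPM (-2.55 and -1.05, the latter -0.18 with Cd74 below 0.1% of UMIs) and dermokine (Dmkn), its neighbour on chromosome 7, at 5531, 4414 and 3497 CPM, within 2-fold (-1.10 after microneedling with every cell weighted equally). In basal cells Krtdap was higher in both treated libraries, at 696, 1643 and 1889 CPM (1.23 and 1.43). A Krtdap level of 1000 CPM or more was found in 13 of 93 untreated basal cells, 90 of 190 after croton oil and 23 of 68 after microneedling. Basal Sbsn was at 89.2, 78.8 and 518 CPM (-0.17 and 2.47, the former -1.82 with Cd74 below 0.1% of UMIs) and basal Dmkn at 729, 1666 and 1156 CPM (1.19 and 0.66). Among cells with Cd74 below 0.1% of UMIs the basal change after croton oil was -0.11 for Krtdap and 0.68 for Dmkn, and after microneedling 1.04 and 0.57. Of the 90-base stretches at the 3' end of Sbsn, 13.5% are shared with an antisense gene, Tmem147os.

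Of the 4 members with broad epidermal expression, galectin-7 (Lgals7), a stress-responsive lectin of stratified epithelia, was higher after croton oil in both layers, at 3195, 10336 and 5876 CPM in basal cells (1.69 and 0.88) and 7025, 22514 and 11290.5 CPM in suprabasal cells (1.68 and 0.68). Stratifin (Sfn), an adaptor protein induced by p53 and counted with the injury-associated list, was at 1181, 2733 and 2412 CPM in basal cells (1.21 and 1.03) and 1704, 3588 and 2267 CPM in suprabasal cells (1.07 and 0.41). In basal cells with Cd74 below 0.1% of UMIs the croton oil changes of Lgals7 and Sfn were 0.49 and 0.36, within 2-fold, and so were those of Sfn in basal cells after microneedling (0.46) and in suprabasal cells after croton oil (0.80). Calm4, an epidermal calmodulin-like protein, was within 2-fold in suprabasal cells at 8179, 4507 and 6412 CPM and higher in basal cells after microneedling, at 378, 312 and 1253 CPM (-0.28 and 1.71). Ly6d, a surface protein of stratified epithelium, was at 5828, 2894 and 4436 CPM in suprabasal cells (-1.01 and -0.39, the former -0.87 with every cell weighted equally). It was within 2-fold in basal cells, though its change there after croton oil was -1.27 among cells with Cd74 below 0.1% of UMIs.

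**Figure D2:**
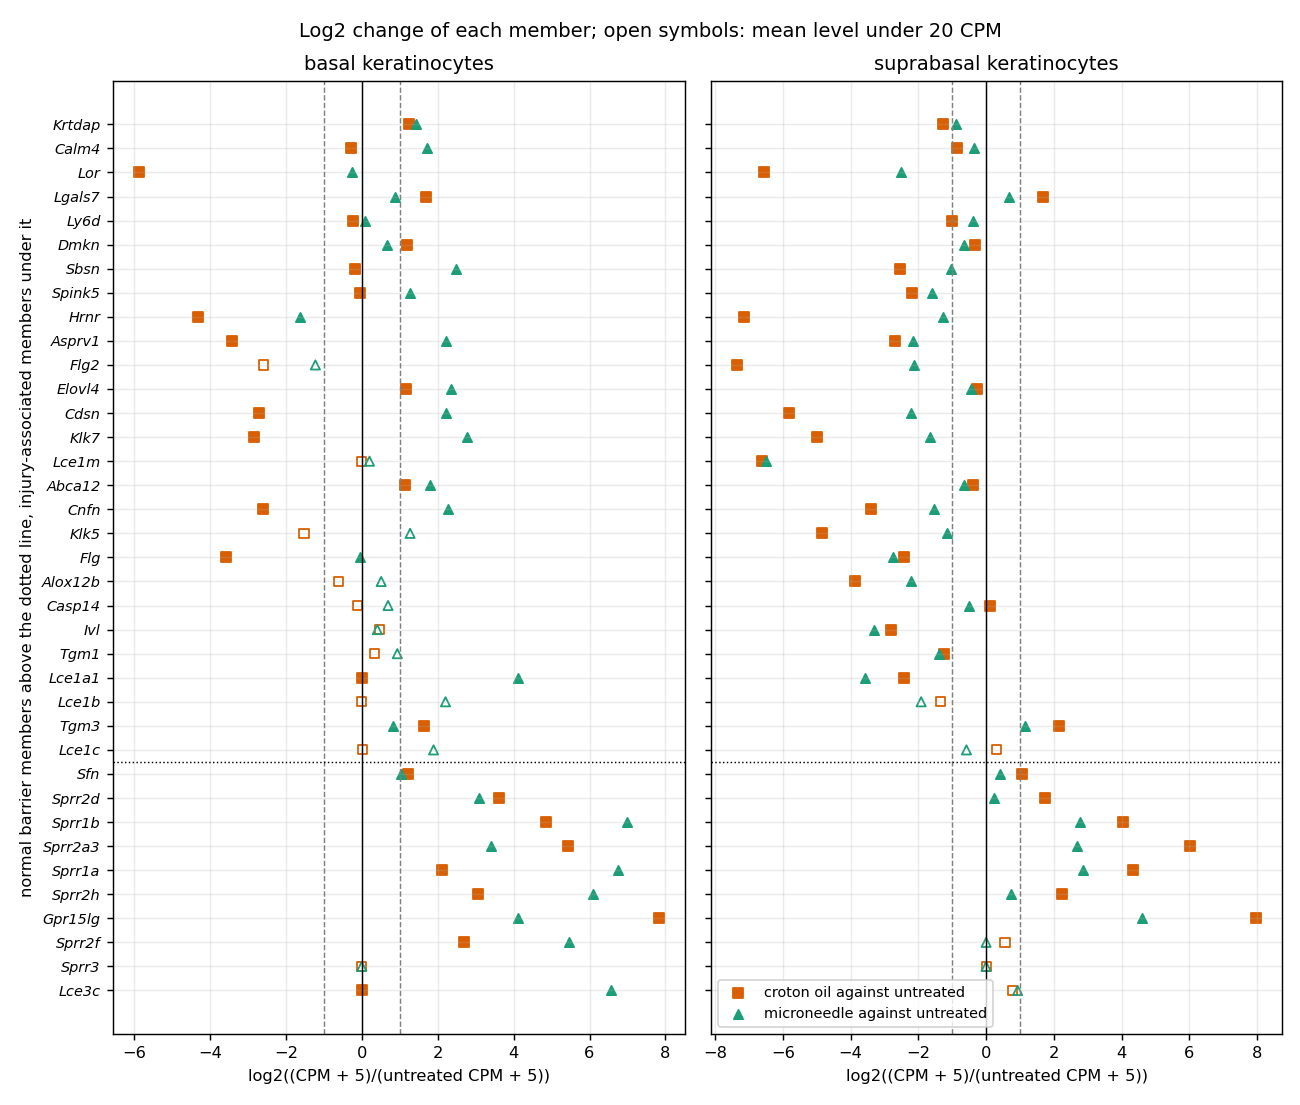
Log2 change of each member against the untreated library, log2((CPM + 5)/(untreated CPM + 5)), in basal (left) and suprabasal (right) keratinocytes. Orange squares are croton oil, green triangles microneedle, open symbols members with a mean below 20 CPM, and dashed lines 2-fold. Of the filled symbols, 18 after croton oil and 16 after microneedling lay at or below the lower line in suprabasal cells. In basal cells after microneedling 20 filled symbols lay above the upper line.

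Of the 7 small proline-rich members, 6 were compared in basal cells and 5 in suprabasal cells. In basal cells 6 of 6 were higher after each treatment, and in suprabasal cells 5 of 5 after croton oil and 3 of 5 after microneedling. Sprr2a3, the most abundant Sprr2 member after croton oil by CPM, was at 25.1, 1287 and 315 CPM in basal cells of the untreated, croton oil and microneedle libraries (log2 changes 5.42 and 3.41) and 17.5, 1465 and 139 CPM in suprabasal cells (6.03 and 2.68, the latter 0.20 among cells with Cd74 below 0.1% of UMIs). Its level after croton oil was 4.08 times that after microneedling in basal cells (95% interval 3.81 to 4.38, exact conditional binomial) and 10.5 times in suprabasal cells (8.53 to 13.2). It was spread over the class, with 174 of 190 croton oil basal cells positive. At the 3' end of Sprr2a3, 42.3% of the 90-base stretches are shared with Sprr2a1 and Sprr2a2, so that reads could have been assigned to a neighbour. Sprr2a1 and Sprr2a2 had separate counts of 30 and 11 UMIs in croton oil basal cells. Whether the Sprr2a3 value includes reads of those genes was not tested.

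Sprr1a and Sprr1b showed the reverse order in basal cells. Sprr1b was at 5.99, 314 and 1380.0 CPM there (4.86 and 6.98) and Sprr1a at 1.87, 24.6 and 738 CPM (2.10 and 6.76), so that croton oil basal cells had 0.228 times (0.217 to 0.239) and 0.0333 times (0.0290 to 0.0380) the microneedle level. In suprabasal cells the order was that of Sprr2a3, with Sprr1b at 80.0, 1396 and 578 CPM (4.04 and 2.78) and Sprr1a at 9.48, 291 and 99.7 CPM (4.35 and 2.85). The basal microneedle level came from few cells. Sprr1b was detected in 24 of 68 cells and 1 of them held 26.5% of its UMIs, and 8 of the 56 cells with at least 10000 UMIs had 1000 CPM or more. The highest reached 28279 CPM. Without the cell with most UMIs the microneedle changes were 7.49 for Sprr1b and 6.29 for Sprr1a.

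Sprr2d, the highest of the Sprr members in untreated suprabasal cells, was at 232, 794 and 273 CPM there (1.75 and 0.23) and at 19.1, 289 and 202 CPM in basal cells (3.61 and 3.10). Sprr2f and Sprr2h had 0 UMIs in untreated basal cells. After croton oil they reached 27.6 and 36.9 CPM and after microneedling 216 and 333 CPM, at least 24.5-fold and 32.9-fold, and at least 192-fold and 297-fold, above the 3-count floor of the untreated class. For Sprr2f 94.6% of the microneedle UMIs were in 1 cell. Suprabasal Sprr2h was at 7.996, 57.0 and 16.6 CPM (2.25 and 0.73, or 0.98 and 1.62 with Cd74 below 0.1% of UMIs), and Sprr2f did not reach 20 CPM there. Sprr3 had 0 UMIs in all 6 classes, which allows up to 1.12, 0.300 and 1.13 CPM in basal cells and 0.888, 3.56 and 4.53 CPM in suprabasal cells of the untreated, croton oil and microneedle libraries. Of 9 further Sprr genes, Sprr2g (0, 30.9 and 168 CPM) and Sprr2e (0, 2.50 and 165 CPM) reached 20 CPM in basal cells.

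Lce3c belongs to the late envelope genes that are known for expression in injured and psoriatic skin. It had 0 UMIs in basal cells of the untreated and croton oil libraries and 465 CPM after microneedling, at least 413-fold above the untreated floor. Of the 1235 UMIs, 61.1% were in 1 cell, 7 of 68 cells had any, and 2 cells reached 1000 CPM. Without the leading cell the log2 change was 5.23 in place of 6.55. Other Lce3 genes share 29.8% of the 90-base stretches at its 3' end, and Lce3d, Lce3e and Lce3f showed the same pattern, with 0 UMIs in both other basal classes and 287, 85.8 and 302 CPM after microneedling. In suprabasal cells Lce3c had 0, 3 and 3 UMIs.

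Gpr15lg encodes a secreted peptide that attracts lymphocytes through the receptor GPR15. Its level was 3.37 CPM in untreated basal cells (1.54 to 6.40), 1895 CPM after croton oil (1868 to 1922) and 140.3 CPM after microneedling (126 to 155), with log2 changes of 7.83 and 4.12. The suprabasal values were 2.07, 1787 and 166 CPM (7.99 and 4.60), within 2-fold of the basal level in each library. The suprabasal microneedle change was 2.32 among cells with Cd74 below 0.1% of UMIs and 3.28 without the leading cell. Croton oil cells had 13.5 times the microneedle level in basal cells (12.2 to 15.0) and 10.8 times in suprabasal cells (8.86 to 13.2). Of the 190 croton oil basal cells 175 were positive and the leading cell held 2.31% of the UMIs, and without the leading cell the change was 7.93.

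**Figure D3:**
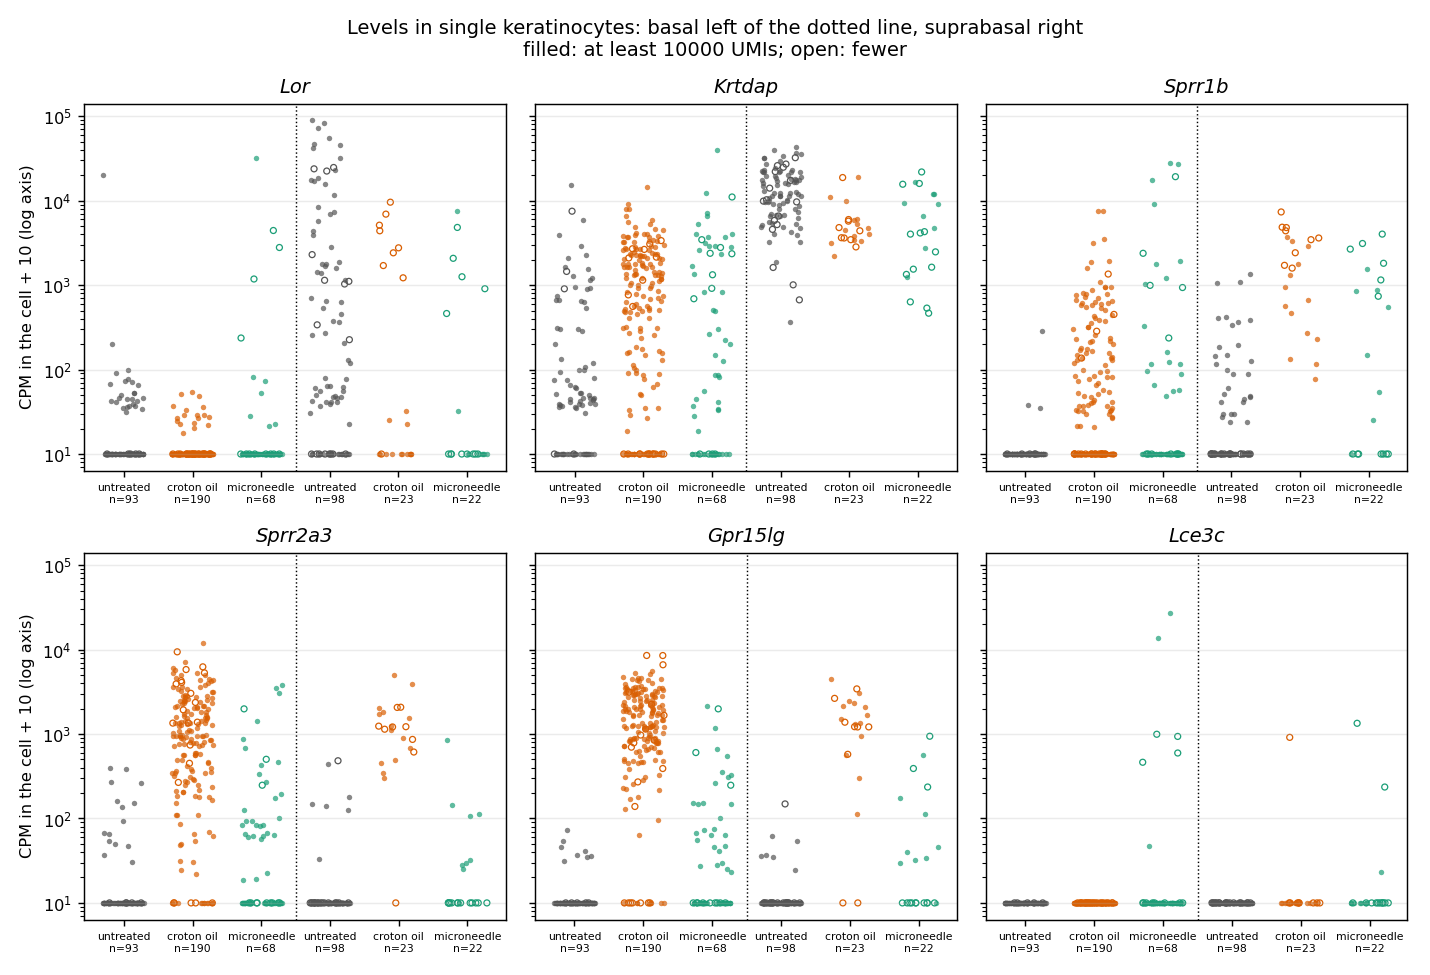
CPM + 10 in each keratinocyte on a log axis for Lor, Krtdap, Sprr1b, Sprr2a3, Gpr15lg and Lce3c, with basal cells left and suprabasal cells right of the dotted line in each panel. Filled points are cells with at least 10000 UMIs and open points shallower cells; cells at the bottom have no UMI. After croton oil the suprabasal cells with 1000 CPM of Lor or more were all open points, while 8 and 10 of the 14 filled points reached 1000 CPM of Sprr2a3 and Gpr15lg.

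In the croton oil library the suprabasal cells with high Lor were all shallow. Levels of 1000 CPM or more were found in 36 of 98 untreated suprabasal cells (36.7%, exact binomial interval 27.2 to 47.1), 8 of 23 after croton oil (34.8%, 16.4 to 57.3) and 4 of 22 after microneedling (18.2%, 5.19 to 40.3). Among cells with at least 10000 UMIs the counts were 29 of 81, 0 of 14 and 1 of 9. The shallow cells hold few Lor molecules each, and the summed change among deep cells was -9.75 after croton oil and -2.48 after microneedling.

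Shares of positive cells were compared after thinning each cell to 3000 UMIs, which left 90, 178 and 60 basal and 92, 16 and 14 suprabasal cells in the untreated, croton oil and microneedle libraries. Cells under 3000 UMIs were left out, 6, 7 and 8 of them suprabasal in that order. Lor was detected in 44.6% of untreated suprabasal cells (34.2 to 55.3), 6.25% after croton oil (0.158 to 30.2) and 28.6% after microneedling (8.39 to 58.1). Before thinning the shares were 72.4%, 47.8% and 31.8%. Of the croton oil suprabasal cells, 9 had under 10000 UMIs, and 8 of those had 1000 CPM of Lor or more. With 7 cells left out, most of these 8 were not in the thinned share. Langerhans cells, which should not make these proteins, measure free RNA in the droplets, and their thinned Lor shares were 3.94%, 0.217% and 0.521% over 8468, 6002 and 5184 cells. The untreated, croton oil and microneedle basal shares of Lor, 3.33%, 0% (up to 1.69% allowed) and 3.33%, were 3, 0 and 2 cells, the untreated share being below that of the Langerhans cells. Langerhans cells had median depths of 11486, 12444 and 17261 UMIs before thinning.

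Cdsn was detected in 57.6%, 6.25% and 14.3% of thinned suprabasal cells and Hrnr in 54.3%, 6.25% and 21.4%, with at most 0.272% and 0.957% in Langerhans cells. Before thinning the suprabasal shares were 63.3%, 13.0% and 9.09% for Cdsn and 65.3%, 13.0% and 18.2% for Hrnr. Sprr2a3 was detected in 5.56%, 75.8% and 18.3% of basal cells and in 2.17%, 93.8% and 21.4% of suprabasal cells, against 0.0236%, 1.48% and 0.0579% of Langerhans cells. For Gpr15lg the basal shares were 2.22% (0.270 to 7.80), 84.8% (78.7 to 89.8) and 20% (10.8 to 32.3), against 0.803%, 2.82% and 1.04%. Before thinning the basal Gpr15lg shares were 8.60%, 92.1% and 44.1% and those of Sprr2a3 16.1%, 91.6% and 48.5%. Sprr1b showed like basal shares of 24.7% and 20% in the treated libraries (53.2% and 35.3% before thinning) though its CPM was higher after microneedling.

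**Figure D4:**
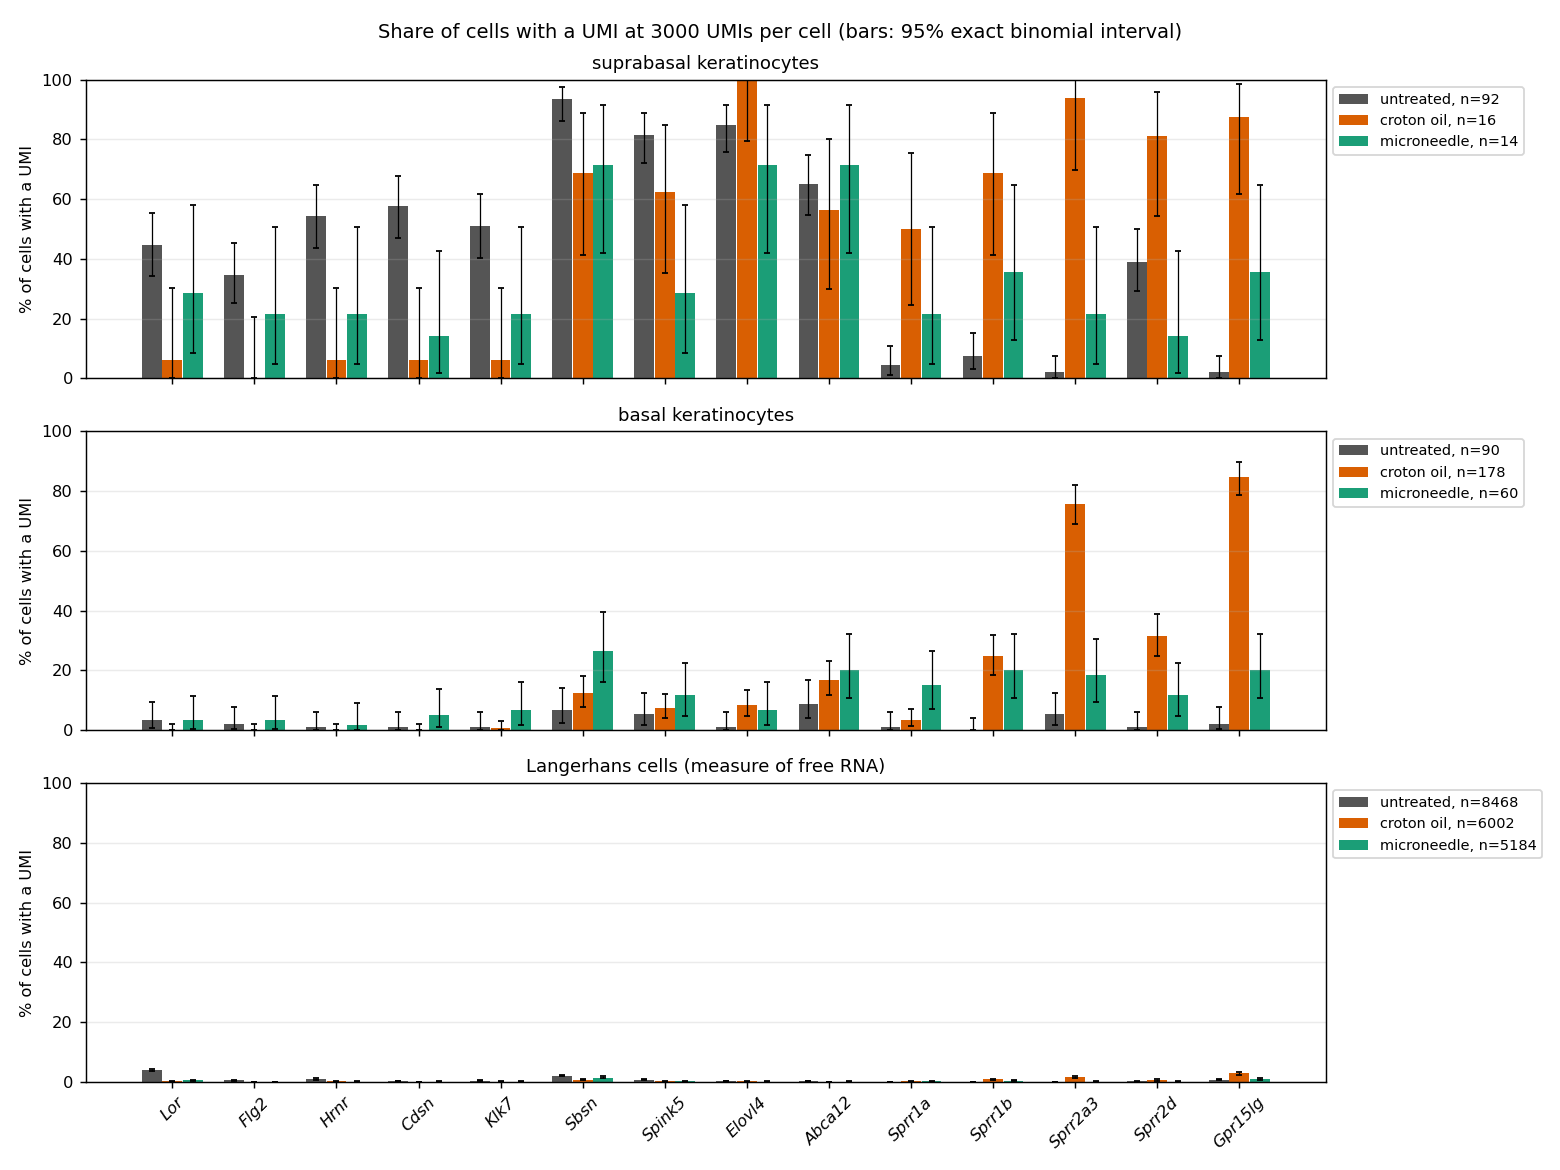
Percentage of cells with a UMI of 14 members after thinning every cell to 3000 UMIs, in suprabasal keratinocytes (top), basal keratinocytes (middle) and Langerhans cells (bottom). Bars are single libraries and error bars exact binomial 95% intervals, which cover counting error only. Langerhans cells stayed at or below 3.94% for every gene drawn, while Lor, Cdsn, Hrnr and Klk7 were at 6.25% after croton oil in suprabasal cells and Sprr2a3 and Gpr15lg at 75.8% or more in both layers. The croton oil suprabasal bars leave out 7 of 23 cells, those under 3000 UMIs. Before thinning, the croton oil suprabasal shares of Lor, Cdsn, Hrnr and Klk7 were 47.8%, 13.0%, 13.0% and 30.4%.

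Several late genes were detected together in untreated suprabasal cells. Of 41 thinned cells with Lor, 37 had Hrnr, 39 Cdsn and 38 Klk7, against 13, 14 and 9 of the 51 cells without Lor. Flg2 was found in 27 against 5 and Lce1m in 9 against 1. Across the 92 cells Spearman's rho with Lor was 0.81 for Hrnr, 0.71 for Cdsn, 0.82 for Klk7, 0.77 for Flg2 and 0.49 for Lce1m, and -0.46 for Lgals7 and 0.02 for Krt10. The cells share 1 library and 1 fixed depth, and these values are descriptions.

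The injury-associated genes did not all share cells. In croton oil basal cells Sprr2a3 was detected alongside Sprr1b in 30 of 135 cells with Sprr2a3 and in 14 of 43 without (rho -0.12 over 178 cells), and its rho was 0.56 with Lgals7 and 0.41 with Krt14. Sprr1b there went with Sprr2d, found in 29 of 44 cells with Sprr1b against 27 of 134 without (rho 0.49), and with Krtdap (42 of 44 against 81 of 134). After microneedling, 12 of 60 thinned basal cells had Sprr1b. All 12 had Krt6a, a keratin of wounded epidermis, against 12 of the 48 others, none of the 12 had Sprr2a3 against 11 of 48, and 11 of the 12 had Krtdap against 17 of 48.

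**Figure D5:**
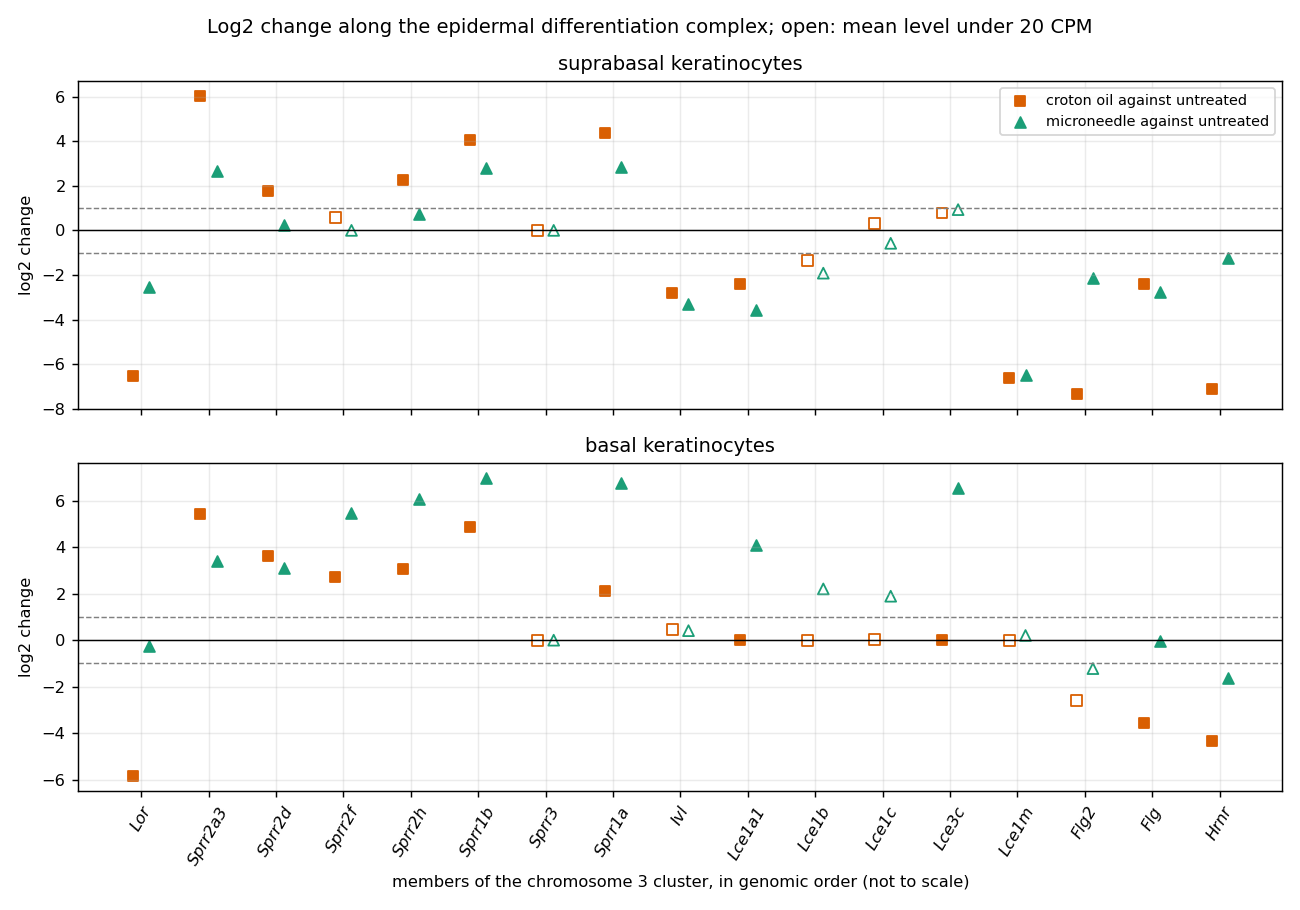
Log2 change against the untreated library for the 17 members of the chromosome 3 cluster in genomic order, from Lor to Hrnr (not to scale), in suprabasal (top) and basal (bottom) keratinocytes. Squares are croton oil, triangles microneedle and open symbols members under a mean of 20 CPM; dashed lines are 2-fold. In suprabasal cells the 5 Sprr genes compared lay above the line after croton oil (1.75 to 6.03) while Lor, Ivl, Lce1a1, Lce1m, Flg2, Flg and Hrnr lay below it in both libraries (-1.26 to -7.36).

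Along the cluster, neighbouring families differed in direction. The Sprr genes lie between Lor and Ivl, yet 5 of 5 compared in suprabasal cells were higher after croton oil and 3 of 5 after microneedling, while 8 of 8 late structural members, Cnfn on chromosome 7 included, were lower after each, 4 of them (Lor, Flg2, Hrnr and Cnfn) not after microneedling among cells with Cd74 below 0.1% of UMIs. After croton oil Flg and Lce1a1 were at 0.65 and 1.71 with every cell weighted equally. In basal cells 6 of 6 Sprr members were higher after each treatment, and of 6 late structural members compared, Lce3c included, 0 were higher and 4 lower after croton oil and 3 higher and 1 lower after microneedling. The basal microneedle changes of Lor, Flg and Hrnr were all past 2-fold higher among cells with Cd74 below 0.1% of UMIs.

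Other genes of the envelope were compared in the same classes. With Cd74 below 0.1% of UMIs, 2 of 7 suprabasal scaffold and crosslinking genes were lower after each treatment (14.6% and 5.42% of all genes). Of 6 compared over all suprabasal cells, 4 were lower after croton oil and 3 after microneedling, where 9.99% and 6.16% of all genes were. They included Kprp, a keratinocyte proline-rich protein, at 179, 3.56 and 39.3 CPM (-4.43 and -2.06, the latter -0.78 with Cd74 below 0.1% of UMIs), the protease inhibitor cystatin M (Cst6) at 3279, 414 and 583 CPM (-2.97 and -2.48) and Csta1 at 309, 146 and 54.4 CPM (-1.06 and -2.41, the former -0.33 with Cd74 below 0.1% of UMIs). Of 5 such genes compared in basal cells, 0 were higher and 2 lower after croton oil (10.5% and 14.3% of all genes). After microneedling 1 was higher and 1 lower (5.38% and 4.1% of all genes). Basal Cst6 was lower after both, at 800.2, 26.6 and 241 CPM (-4.67 and -1.71). Basal Csta1 was higher after microneedling, at 21.0, 45.5 and 130 CPM (0.96 and 2.38, or 2.57 and 4.72 with Cd74 below 0.1% of UMIs). Injury keratins and alarmins were higher in 7 of 8 and 6 of 8 cases in suprabasal cells, against 9.58% and 8.86% of all genes, and in 6 of 7 in basal cells of both libraries, against 10.5% and 5.38%. With Cd74 below 0.1% of UMIs the suprabasal counts were 6 and 3 of 8, and the basal counts 6 and 7 of 8. Of all genes 8.79% and 7.92% were higher in suprabasal cells in that setting, and 11.5% and 11.2% in basal cells. Krt16, a keratin of hyperproliferating epidermis, was at 13.9, 18455 and 2173 CPM in suprabasal cells (9.93 and 6.85, the latter 3.47 with Cd74 below 0.1% of UMIs) and at 12.7, 1872 and 2754 CPM in basal cells (6.73 and 7.28). Krt17 was the gene of that list that was lower in croton oil basal cells, at 303, 97.1 and 395 CPM (-1.60 and 0.38, or -4.91 and -2.45 with Cd74 below 0.1% of UMIs).

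Among 6 kallikreins and inhibitors compared in basal cells 3 were higher after croton oil and 5 after microneedling, where 10.5% and 5.38% of all genes were. With Cd74 below 0.1% of UMIs 3 and 6 of 7 were higher, where 11.5% and 11.2% of all genes were. Klk6 had 0 UMIs in untreated and croton oil basal cells and 197 CPM after microneedling, and Klk10 was at 5.62, 40.4 and 177 CPM (2.10 and 4.10). In suprabasal cells 4 of 7 were higher and 2 lower after croton oil (9.58% and 9.99% of all genes). With Cd74 below 0.1% of UMIs these counts were 3 and 1 (8.79% and 14.6% of all genes). After microneedling 2 were higher and 1 lower (8.86% and 6.16% of all genes), or 1 and 0 with Cd74 below 0.1% of UMIs (7.92% and 5.42%). They included the serine protease inhibitor Serpinb6c at 1.18, 140.1 and 19.6 CPM (4.55 and 1.99) and Serpinb12 at 312, 61.7 and 140.4 CPM (-2.25 and -1.12). Their microneedle changes were 0.73 and -0.86 among cells with Cd74 below 0.1% of UMIs. Transcription factors of keratinocyte differentiation were mostly within 2-fold. Of 15 compared in suprabasal cells 1 was lower after croton oil, where 9.99% of all genes were, the homeodomain gene Hopx (405, 159 and 227 CPM, -1.32 and -0.82), and 2 after microneedling, where 6.16% of all genes were, Gata3 (340.0, 304 and 163 CPM, -0.16 and -1.04) and Cebpa (359, 251.6 and 175 CPM, -0.51 and -1.02), and none was higher. With Cd74 below 0.1% of UMIs 3 were lower after croton oil and 2 after microneedling, where 14.6% and 5.42% of all genes were. Of the 14 compared in basal cells, Maf (422, 162 and 248 CPM, -1.36 and -0.76) and Trp63 (-1.18) were lower and Zfp750 (36.3, 97.5 and 54.2 CPM, 1.31 and 0.52) higher after croton oil, and Prdm1 (1.23) and Grhl3 (1.08) were higher after microneedling. Over all genes in basal cells 10.5% were higher and 14.3% lower after croton oil and 5.38% and 4.1% after microneedling. With Cd74 below 0.1% of UMIs Trp63 was at -0.89 and Zfp750 at 0.95 after croton oil, within 2-fold.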

How the data were processed

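Single-cell RNA was measured in 3 libraries of ear epidermis, 1 per group. The deposited count matrices hold whole UMI counts per gene and barcode, and are raw counts per the file headers, which name Cell Ranger 8.0.0. The genome was GRCm39, per the submitters' processing notes. The libraries held 127666928, 119360952 and 117178809 UMIs over 9876, 8241 and 6945 barcodes (untreated, croton oil, microneedle), and pairs of libraries shared 32, 17 and 13 barcodes.

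Barcodes with at least 500 genes and at most 10% mitochondrial UMIs were kept. Scrublet (scanpy 1.11.5) called 1, 0 and 0 doublets by its own threshold, so the highest scores were removed at 0.8% per 1000 cells (773, 532 and 376 barcodes). UMIs were summed per library and class and scaled to CPM over all UMIs of the class. Changes are log2((CPM + 5)/(untreated CPM + 5)), for genes with a mean of at least 20 CPM over the 3 libraries, and a gene was counted as higher or lower at 2-fold. This scale understates the change of low genes. Intervals are exact Poisson, binomial or conditional binomial at 95%, and a count of 0 was read as up to 3 counts. Langerhans cells had Cd74 at 1% of UMIs or more and the 4 keratins below 0.5%. Genes were positioned on GRCm39, and 90-base stretches of the last 500 bases of each transcript were matched against all other genes. The class sums and changes were checked on simulated counts.

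With 1 library per group there was no test across libraries. The members and all lists were chosen with earlier results of these data known. All 37 members are accounted for. From each other list at most 3 genes with the largest change are named, and others only to complete a count of 5 or fewer, after their values were seen. A withheld item is not reported here. In all, 9 alternatives were planned and 3 (cells with at least 10000 UMIs, Cd74 below 0.1% of UMIs, deep cells with Lor below 1000 CPM) were added after the data were seen. Python 3.11.15, numpy 2.4.6, scipy 1.17.1, pandas 2.3.3, matplotlib 3.10.9, R 4.3.3 and edgeR 4.0.16 (TMM factors only) were used.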

Additional observations from a re-analysis of the deposited data

Results flagged for a closer look

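For 8 members the change in basal cells and the change in suprabasal cells lay past 2-fold in opposite directions under the same treatment. These differences between layers were not tested, since there was 1 library per group.

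After croton oil this held for Krtdap, with a log2 change of 1.23 in basal and -1.26 in suprabasal cells. Its basal change was -0.11 among cells with Cd74 below 0.1% of UMIs.

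After microneedling it held for the other 7. Sbsn was at 2.47 in basal and -1.05 in suprabasal cells, Spink5 at 1.28 and -1.60, and Asprv1 at 2.22 and -2.15. Cdsn was at 2.21 and -2.22, Klk7 at 2.78 and -1.66, Cnfn at 2.28 and -1.53, and Lce1a1 at 4.11 and -3.58. Lce1a1 and Asprv1 in basal cells rested on 1 microneedle cell with 96.8% and 90.8% of the UMIs, and without the leading cell their basal changes were 0.62 and 0.15. In suprabasal cells with Cd74 below 0.1% of UMIs the changes of Sbsn, Spink5, Asprv1, Cdsn, Klk7 and Cnfn were -0.18, -0.27, -0.84, -0.75, -0.03 and -0.04, within 2-fold. Among suprabasal cells with at least 10000 UMIs the changes were -1.01, -1.61, -2.09, -2.16, -1.71 and -1.51 for those 6 in the same order and -3.59 for Lce1a1. Without the cell with most UMIs of each gene they were -1.95, -4.03, -3.99, -6.85, -4.61 and -4.65, and -2.34 for Lce1a1.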

How the results depend on the processing

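Depth, few cells and 1 library per group limit every value, and settings that remove cells leave small classes (14, 125 and 42 basal and 67, 13 and 11 suprabasal cells at Cd74 below 0.1% of UMIs, in the order untreated, croton oil, microneedle). No paired analysis was possible because each group has 1 library and the labels carry no replicate numbers. The cause of the shifts was not tested. Under the alternatives, 76 member counts stayed within 1.5 times of their value and 16 did not. Of the medians, 58 were scored as unchanged, 29 as moved and 5 as reversed. For single-member changes these numbers were 848, 486 and 28. Reversed means only that the sign changed, and a reversed value near 0 is little or no change.

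Cd74 below 0.1% of UMIs, in basal cells, gave 9 members higher and 4 lower after croton oil (from 14 and 7, with Lor and Asprv1 lower in both) and 0 lower after microneedling (from 1). The normal and injury-associated medians became 0.11 and 2.64 after croton oil, and the normal median 2.01 after microneedling. In suprabasal cells it gave 3 higher and 4 lower of 31 after microneedling (from 5 and 16), where 7.92% and 5.42% of all genes passed. The normal and injury-associated medians there were -0.27 and 1.26, and the normal median after croton oil was -1.85. Reversed members were Flg 0.20, Hrnr 0.054, Krtdap -0.11, Cdsn 0.11, Klk7 0.20 and Cnfn 0.11 (basal, croton oil), Hrnr 3.57 (basal, microneedle), and Hrnr 0.29, Tgm3 -0.22 and Klk5 0.33 (suprabasal, microneedle).

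Keratins at 2% of UMIs or more, in basal cells, gave 0 lower after croton oil and 0 after microneedling, normal medians of 0.35 and 2.55 and an injury-associated median of 5.34 after microneedling, and 3.70 in suprabasal cells after croton oil. Flg 0.25, Klk7 0.15, Asprv1 0.35 and Cnfn 0.11 reversed after croton oil and Hrnr 2.95 after microneedling, all basal. A larger keratin pair at least 2 times the smaller gave 2 and 0 lower in basal cells, normal medians of 0.13 and 2.80, injury-associated medians of 2.98 and 5.46, and 1.55 in suprabasal cells after microneedling. Flg 0.11 and Klk7 0.089 (croton oil) and Hrnr 2.30 (microneedle) reversed in basal cells.

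Leaving out the cell with most UMIs of each gene gave 1 and 0 lower in basal cells, where 22 of the 27 members still reached 20 CPM (Lor, at -1.58 after croton oil, did not), a normal median of 0.53 after croton oil, an injury-associated median of 4.71 after microneedling, and medians of -3.55 and 2.26 in suprabasal cells after microneedling. Flg 0.084 and Klk7 0.032 reversed in basal cells after croton oil. Equal weight for each cell gave 0 lower in basal cells after microneedling with a normal median of 2.23, an injury-associated median of 2.93 in basal cells after croton oil, and 14 higher, 11 lower and a normal median of -0.87 in suprabasal cells after croton oil. Hrnr 0.26 (basal, microneedle), Flg 0.65 and Lce1a1 1.71 (suprabasal, croton oil) and Tgm3 -0.28 (suprabasal, microneedle) reversed.

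TMM scaling gave a normal median of 0.21 in basal cells after croton oil, and injury-associated medians of 5.33 (basal, microneedle), 3.89 and 2.45 (suprabasal). Without the filter on low genes 2 members were lower in basal cells after microneedling with a normal median of 1.27, and the injury-associated medians were 2.89 and 4.79 in basal and 2.00 and 0.83 in suprabasal cells. Without doublet removal the injury-associated median in basal cells after croton oil was 3.06. Deep suprabasal cells with Lor below 1000 CPM, a choice of cells made on a member and used to support nothing, gave 10 lower and a normal median of -1.06 after croton oil and an injury-associated median of 2.20 after microneedling. Flg 1.29, Tgm1 0.18 and Asprv1 0.081 (croton oil) and Flg 0.20 (microneedle) reversed there.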
